A study of Homo sapiens with 8 samples.

Results

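The coat protein complex II (COPII) genes SEC23A, SEC23B, SEC24A, SEC24B, SEC24C, SEC24D, SEC31A, SEC13, SAR1A and SAR1B were followed in 2 thyroid cell lines in which miR-375 was added or inhibited. They are 10 of the 36337 gene names on the array and were taken by name, as every non-control probe whose gene name was one of these, which gave 19 of 50599 probes. Nthy-ori 3-1, a line immortalized from normal follicular thyroid tissue, was transfected with premiR-375, which supplies the miRNA as a synthetic mimic. TT, a line of medullary thyroid carcinoma, was transfected with antagomiR-375, an antisense inhibitor. Each line had its own CTL arrays, whose reagent the labels leave unnamed. RNA was taken after 48 h and hybridised in one colour (Cy3), with 2 arrays in each of the 4 groups. The labels give 5 nM for the premiR and 20 nM for the antagomiR, and the methods of the study give other concentrations. Each line is a single line in culture, and the labels do not say whether the 2 arrays of a group come from separate cultures, which the methods call biological replicates. The p-values measure the spread between these arrays, which may be technical.

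COPII is the protein coat that buds vesicles from the endoplasmic reticulum (ER) towards the Golgi. The small GTPase SAR1 recruits the SEC23-SEC24 inner coat, in which SEC23 is the GTPase activator and SEC24 binds cargo, and the SEC13-SEC31 cage then closes around it. Vertebrates carry several paralogs of most of these subunits, and secretory cells such as thyroid follicular cells and calcitonin-producing C cells export much of what they make by this route. A miRNA acts mainly by pairing its seed with transcripts, and the study asked which transcripts are its targets. SEC23A was singled out by the study partly on these arrays, for being lower with the premiR and higher with the antagomiR, so its pattern here is not independent evidence of that direction.

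The mature strand that the premiR supplies and the antagomiR blocks is shown because every comparison turns on it. This strand is encoded at chr2:219001648-219001669 on the minus strand (RefSeq, GRCh38.p14), and its seed, bases 2 to 8, is in capitals.
hsa-miR-375-3p: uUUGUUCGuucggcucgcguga
The sites that pair with it read CGAACAA (bases 2 to 8) or GAACAAA (bases 2 to 7 followed by A). The array held 0 probes for MIR375, so the miRNA itself was not measured. One of these sites, on the strand of the transcript, lay within 413 of the 50599 probe sequences and within 0 of the 19 COPII probes. Among the 143 probes that held a site and were well above background on all 8 arrays, the median log2 change with premiR-375 was -0.27, against 0.03 over all 22197 probes at that brightness. With antagomiR-375 in TT cells the corresponding medians were 0.01 and -0.01.

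Values are log2 intensities after quantile normalization of the 8 arrays together, and a change is the treated array minus the CTL array of the same slide. The CTL and treated array with the same replicate number lay on the same slide, and no slide carried both lines. The labels number the TT arrays differently in 2 fields, and both fields pair the same arrays. Between 32071 and 37340 spots of an array were well above background, and the number of arrays limits the precision. For the 10 genes the brightest probe was well above background on all 8 arrays. The C cell genes calcitonin (CALCA), CHGA, CHGB, RET, SCG2 and CEACAM5 were all well above background in TT CTL cells and higher than in Nthy-ori 3-1 CTL cells (6 of 6 called). Of 8 follicular genes, 6 were well above background on both TT CTL arrays and 4 on both Nthy-ori 3-1 CTL arrays. PAX8 was at 10.68 and FOXE1 at 8.76 in Nthy-ori 3-1 CTL, and both were called lower in TT CTL. By contrast, TG, NKX2-1 and DIO1 were called higher in TT CTL (3 of 8 higher, 2 lower). TG was at 9.13 there and at 4.87 in Nthy-ori 3-1 CTL. TSHR, NKX2-1 and DIO1 were not well above background in Nthy-ori 3-1 CTL. The follicular label of that line thus rests on part of its markers.

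With premiR-375 the SEC23A level in Nthy-ori 3-1 cells was 2.62-fold lower, and with antagomiR-375 its level in TT cells was 1.57-fold higher. SEC24A followed the same pattern on each of its 3 probes, lower in Nthy-ori 3-1 and higher in TT. SEC23B, the paralog of SEC23A, differed little in Nthy-ori 3-1 cells and was higher in TT cells. None of the 19 probes passed an adjusted p of 0.05 in either line. That was so for the whole array, since limma called 0% of the probes in Nthy-ori 3-1 (0 of 50594, with 7257 at an unadjusted p under 0.05), 0% in TT (0 of 50587, with 4920) and 0% in the contrast of the premiR effect with the antagomiR effect (0 of 50599, with 8408). The values below are therefore given as differences and not as calls.

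**Figure D1:**
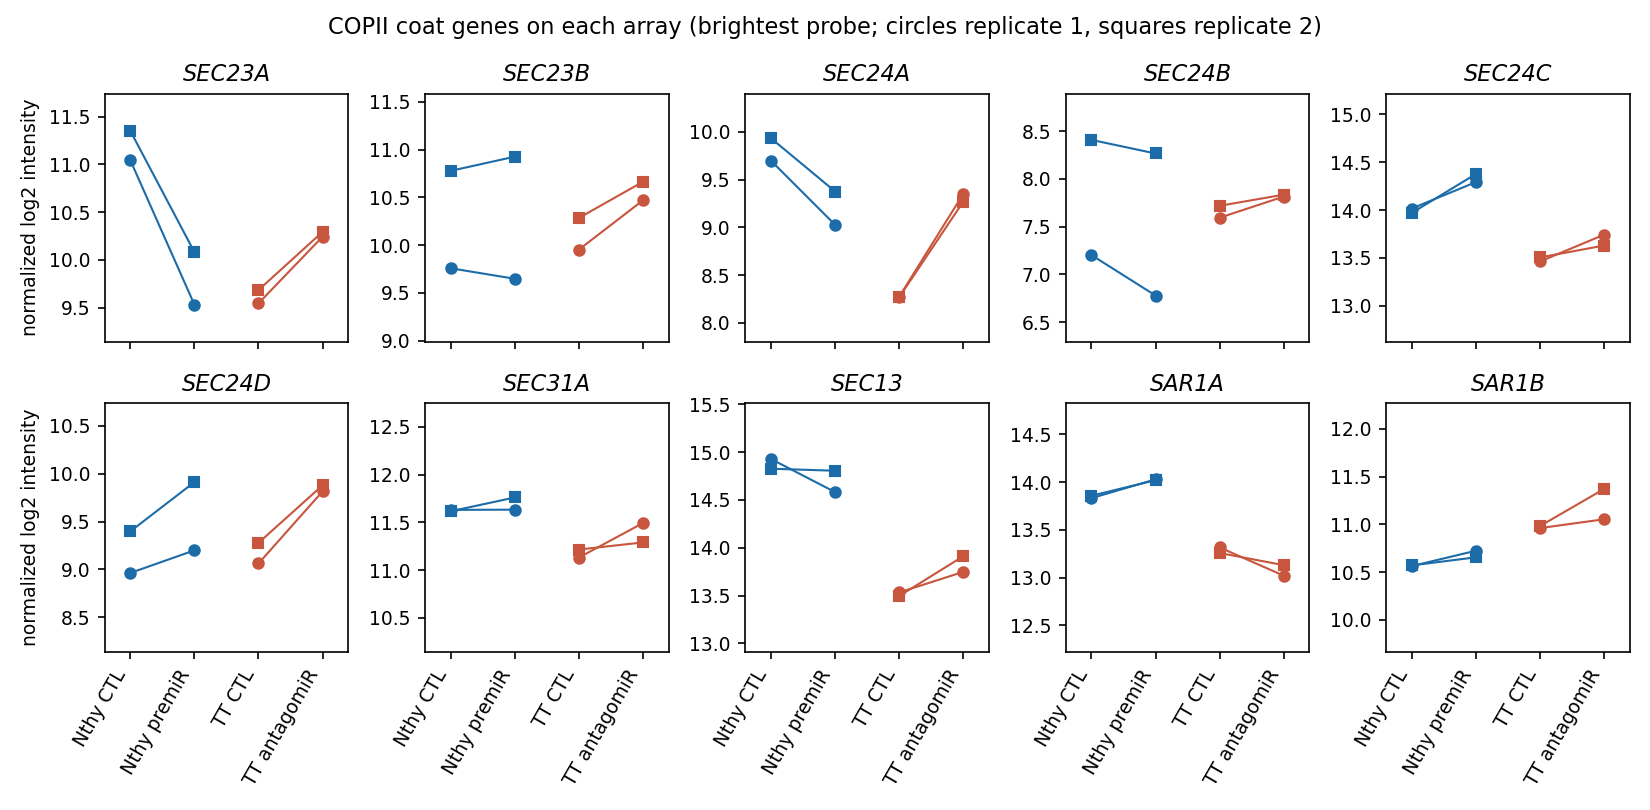
Normalized log2 intensity (vertical axis, all panels spanning the same number of log2 units) of the brightest probe of each COPII gene on the 8 arrays, in blue for Nthy-ori 3-1 and in red for TT. Lines join the CTL and treated array of a slide. SEC23A and SEC24A go down in both blue pairs and up in both red pairs, SEC24D goes up in all 4 pairs, and the 2 slides of Nthy-ori 3-1 lie far apart for SEC23B and SEC24B.

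SEC23A, the GTPase activator of the inner coat, was read by 1 probe at chr14:39501669-39501728 on the minus strand (hg19), which starts at base 3235 of its transcript. It was at 11.04 and 11.35 on the Nthy-ori 3-1 CTL arrays and at 9.53 and 10.08 on the premiR-375 arrays. In TT cells it was at 9.55 and 9.68 with CTL and at 10.24 and 10.29 with antagomiR-375. The groups did not overlap in either line, and all 4 pairs went in opposite directions in the 2 lines. The fitted log2 change was -1.39 in Nthy-ori 3-1 (standard error 0.117, 95% interval -1.90 to -0.89, adjusted p = 0.318 from limma) and 0.65 in TT (standard error 0.0879, 95% interval 0.30 to 1.01, adjusted p = 0.512). The premiR effect minus the antagomiR effect was -2.04 (standard error 0.157, adjusted p = 0.149 from limma). With normexp background correction it was -1.95 (adjusted p = 0.00936), and with the log2 values as deposited it was -1.93 (adjusted p = 0.0149), so this call depends on the processing. The deposited values also differ from the others in signal and normalization, and which step moved the call was not tested.

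SEC23B was read by 2 probes that each span a splice junction of transcript NM_032985, since their ends in hg19 lie further apart than their 60 bases. They are shown because SEC23B is the paralog against which SEC23A is set, and both are on the plus strand. The first is at chr20:18531782-18534900 and the second at chr20:18526643-18529277.
SEC23B probe 1: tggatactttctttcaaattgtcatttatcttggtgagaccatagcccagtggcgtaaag
SEC23B probe 2: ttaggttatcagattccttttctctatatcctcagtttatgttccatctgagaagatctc
On the brighter probe 1, SEC23B was at 9.76 and 10.78 with CTL and at 9.65 and 10.93 with premiR-375 in Nthy-ori 3-1 cells. In TT cells it was at 9.95 and 10.29 with CTL and at 10.47 and 10.66 with antagomiR-375. In Nthy-ori 3-1 the 2 slides lay about 1 log2 unit apart and the pairs differed in sign, whereas in TT the groups did not overlap. The log2 change was 0.02 in Nthy-ori 3-1 (95% interval -0.50 to 0.54) and 0.45 in TT (95% interval 0.06 to 0.83). At the 75th percentile scaling the first of these was -0.03. Probe 2 gave -0.02 and 0.54.

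The change of SEC23A minus that of SEC23B was -1.40 and -1.42 in the Nthy-ori 3-1 pairs. Turned to the direction of the premiR, it was -0.18 and -0.23 in the TT pairs. The mean was -0.81 (SD 0.70 over 4 pairs), and SEC23A lay below SEC23B in 4 of 4 pairs (exact two-sided sign-flip permutation test, p = 0.125, which is the smallest value 4 pairs can give, and 0.161 adjusted over the 9 partners). The paralogs were thus far apart in Nthy-ori 3-1 and close together in TT, and whether this distance differs between the lines was not tested. The SD over the 4 pairs covers both lines and both reagents, not the spread of replicates alone. As SEC23A was chosen by the study partly on these arrays, the sign of this difference is not independent of that choice.

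**Figure D2:**
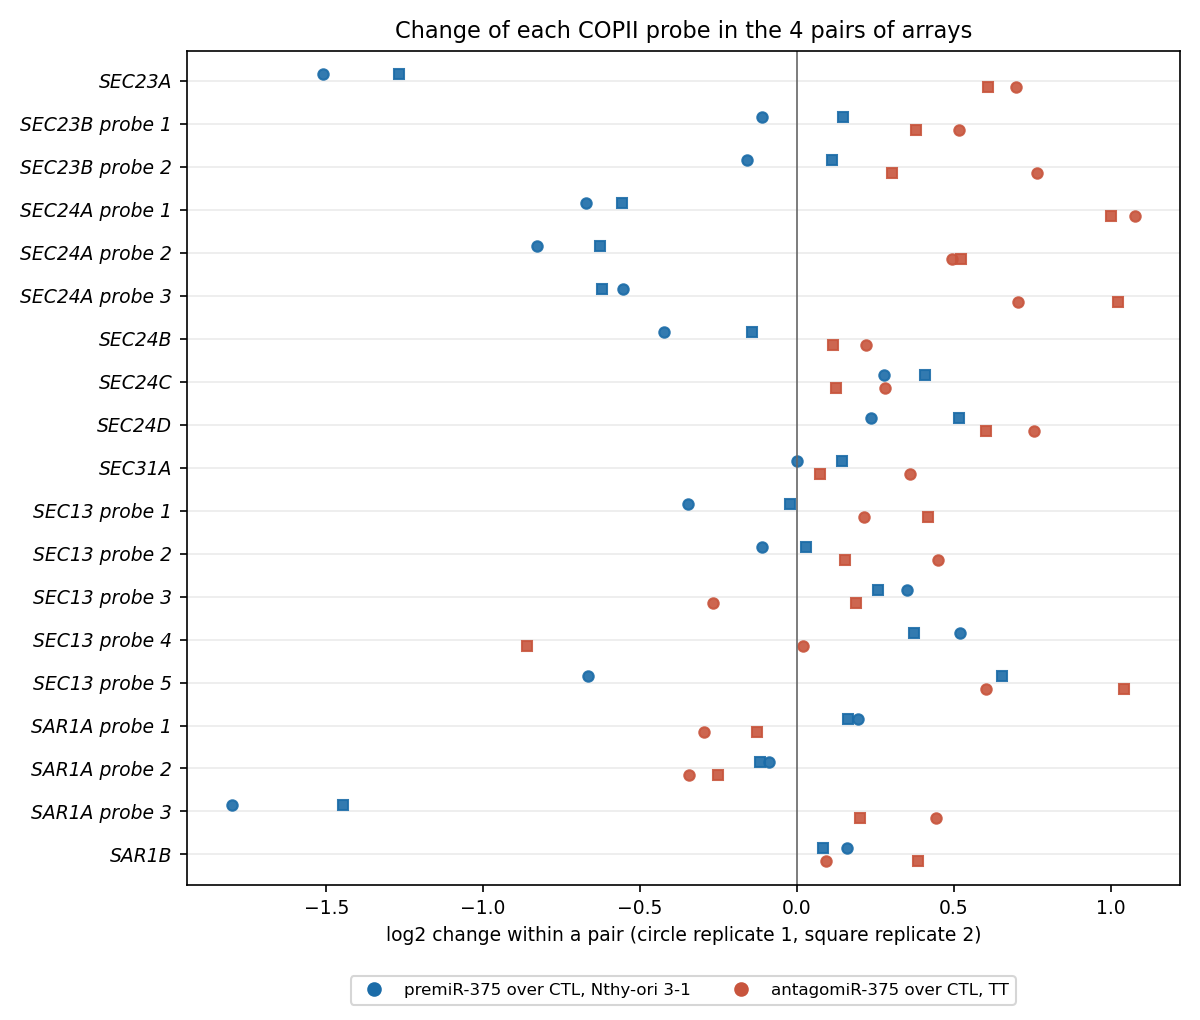
Log2 change (horizontal axis) of each of the 19 COPII probes in the 2 Nthy-ori 3-1 pairs (blue) and the 2 TT pairs (red), with probes of a gene numbered from the brightest. The probes of SEC24A lie to the left in blue and to the right in red, as SEC23A does, and the third SAR1A probe lies apart from the other SAR1A probes.

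SEC24 paralogs bind the sorting signals of cargo proteins. SEC24A was at 9.70 and 9.93 with CTL and at 9.03 and 9.38 with premiR-375 on its brightest probe, at chr5:134063223-134063282. In TT cells it was at 8.28 and 8.27 with CTL and at 9.35 and 9.27 with antagomiR-375. Neither line showed overlap, and in TT the changes of the 2 pairs differed by 0.0766. The log2 change was -0.61 in Nthy-ori 3-1 (standard error 0.0894, adjusted p = 0.318 from limma) and 1.04 in TT (standard error 0.0866, adjusted p = 0.512), the largest change of a member in TT. The other 2 probes gave -0.73 and -0.59 in Nthy-ori 3-1, and 0.51 and 0.86 in TT. They start at bases 3505 and 2074 of their transcripts and the brightest one at base 6012, so probes along the transcript had changes of the same sign. The premiR effect minus the antagomiR effect was -1.65 (adjusted p = 0.149 from limma), with an adjusted p of 0.0109 after normexp and 0.0166 with the deposited values. In TT the SEC24A probe at base 2074 was dim, at 4.44 and 4.11 with CTL and at 5.14 and 5.13 with antagomiR-375. Among the alternative settings its TT change was as low as 0.26, and that of the probe at base 3505 as low as 0.28.

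SEC24B, a close paralog of SEC24A, was at 7.20 and 8.41 with CTL and at 6.78 and 8.27 with premiR-375. With TT CTL it was at 7.59 and 7.72 and at 7.82 and 7.84 with antagomiR-375. Its 4 pairs had the signs of SEC23A, but the log2 changes were small, -0.28 (95% interval -0.83 to 0.27) and 0.17 (95% interval -0.20 to 0.53). SEC24C, of the other SEC24 subfamily, was at 14.02 and 13.97 with CTL, at 14.29 and 14.38 with premiR-375, at 13.46 and 13.50 with TT CTL and at 13.74 and 13.63 with antagomiR-375. It was higher in each treated array than in its CTL array, with log2 changes of 0.34 and 0.20. SEC24D, the relative of SEC24C, was at 8.96 and 9.40 with CTL and at 9.20 and 9.91 with premiR-375. With TT CTL it was at 9.06 and 9.28 and at 9.82 and 9.88 with antagomiR-375. Its log2 change was 0.38 in Nthy-ori 3-1 and 0.68 in TT (standard error 0.0975, adjusted p = 0.512 from limma), so in TT it was about as far above CTL as SEC23A while in Nthy-ori 3-1 it had the opposite sign to SEC23A.

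The outer cage is built of SEC13 and SEC31A. SEC31A was at 11.63 and 11.62 with CTL and at 11.63 and 11.76 with premiR-375, and at 11.13 and 11.22 with TT CTL and at 11.49 and 11.29 with antagomiR-375. Its log2 changes of 0.07 (95% interval -0.33 to 0.48) and 0.22 (95% interval -0.30 to 0.74) were close to the spread between pairs, and at the 75th percentile scaling the first was -0.0049. SEC13 had 5 probes. The brightest, at chr3:10342658-10342717, was at 14.93 and 14.83 with CTL, at 14.58 and 14.81 with premiR-375, at 13.53 and 13.50 with TT CTL and at 13.75 and 13.91 with antagomiR-375. This gave log2 changes of -0.18 and 0.32, and the second brightest gave -0.04 and 0.30. The 2 dimmer probes designed on other transcripts of SEC13 were higher in both Nthy-ori 3-1 pairs, at 0.30 and 0.45, and in TT their pairs differed in sign, with fitted changes of -0.04 and -0.42. The fifth was well above background on 1 of 8 arrays and carries no direction. The probes of SEC13 disagreed in sign in Nthy-ori 3-1, and with the mean of its 4 bright probes the change in Nthy-ori 3-1 was 0.13.

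SAR1A and SAR1B are the GTPases that start the coat. The brightest SAR1A probe, at chr10:71912208-71912267, was at 13.83 and 13.86 with CTL and at 14.03 and 14.02 with premiR-375. In TT cells it was at 13.32 and 13.26 with CTL and at 13.02 and 13.13 with antagomiR-375. Both lines were free of overlap, with small log2 changes of 0.18 and -0.21, and a second probe at chr10:71917490-71917549 gave -0.10 and -0.30. The third probe, at chr10:71910479-71910538, lies nearest the 3′ end and starts at base 2423 of the same NM_020150 transcript on which the brightest probe starts at base 694. It was at 11.41 and 12.25 with CTL and at 9.61 and 10.80 with premiR-375 in Nthy-ori 3-1 cells. In TT cells it was at 10.17 and 10.42 with CTL and at 10.61 and 10.62 with antagomiR-375. Its log2 change was -1.62 in Nthy-ori 3-1 (standard error 0.148, 95% interval -2.26 to -0.98, adjusted p = 0.318 from limma), the lowest of all 19 COPII probes, and 0.32 in TT (95% interval -0.15 to 0.79). Pair by pair its change minus that of the second probe was -1.71 and -1.33 in Nthy-ori 3-1 and 0.79 and 0.45 in TT. This probe was singled out after its values were seen. Which transcripts of SAR1A it reads beyond the one named, and whether its 60 bases also match a related sequence, was not tested, since no hg19 genome or transcript sequence was used here. SAR1B was at 10.56 and 10.57 with CTL and at 10.72 and 10.65 with premiR-375, and its log2 changes of 0.12 (95% interval -0.24 to 0.49) and 0.24 (95% interval -0.29 to 0.77) stayed small in both lines.

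**Figure D3:**
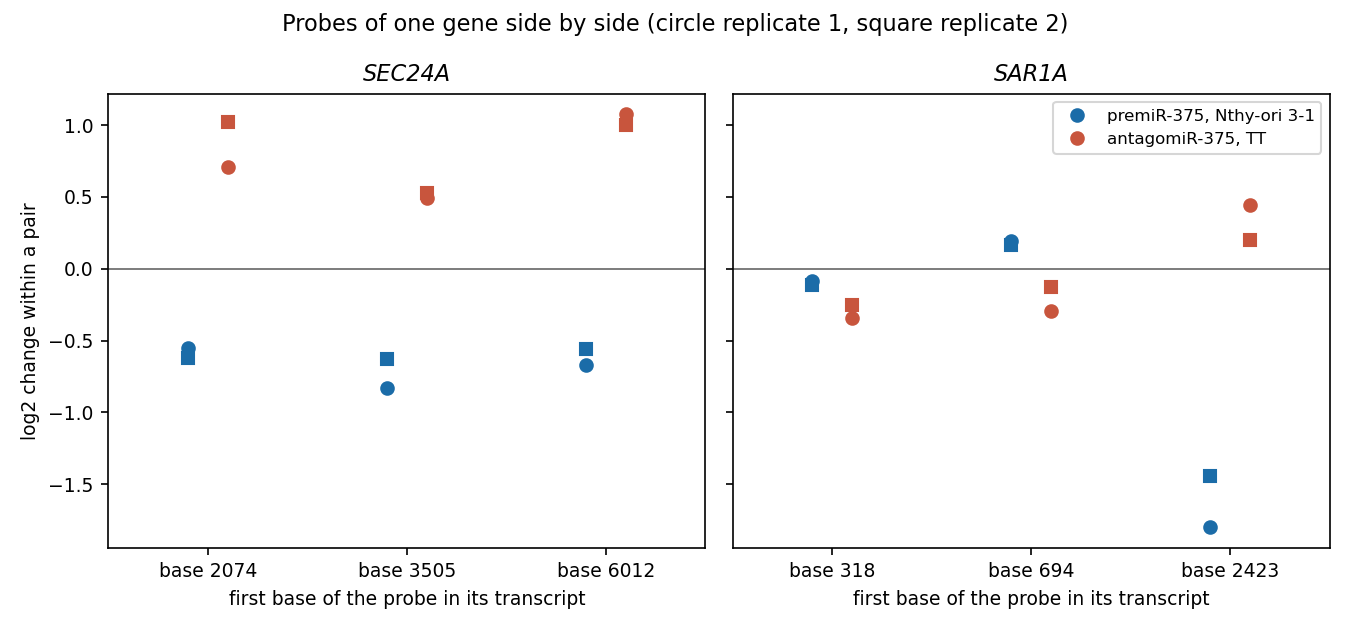
Log2 change (vertical axis) in the 4 pairs for the 3 probes of SEC24A and of SAR1A, ordered by the first base of the probe in the transcript it was designed on (horizontal axis, evenly spaced). The 3 SEC24A probes lie below 0 in Nthy-ori 3-1 and above 0 in TT, lowest there for the probe at base 3505, whereas for SAR1A the probe at base 2423 lies at -1.80 and -1.45 in Nthy-ori 3-1 and the other 2 lie near 0.

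Counted over the brightest probes, 4 of 10 genes were lower in both Nthy-ori 3-1 pairs and higher in both TT pairs (SEC23A, SEC24A, SEC24B and SEC13). The first condition alone held for 4 of 10 genes and for 27.9% of all probes. Among probes well above background on all 8 arrays it held for 7433 of 22190, a larger share. Over all probes of the array the share with both was 8.95%, and over probes well above background on all 8 arrays it was 12.5%. In TT cells 9 of 10 genes were higher in both pairs, against 31.4% of all probes. At an unadjusted p under 0.05 from limma, 2 of 10 (SEC23A and SEC24A) were lower in Nthy-ori 3-1, against 7.26% of all probes, and 4 of 10 (SEC23A, SEC24A, SEC24D and SEC23B) were higher in TT, against 4.91%. With dim probes left out of the fits these shares were larger, at 3708 of 27722 lower in Nthy-ori 3-1 and 2116 of 30299 higher in TT. The median log2 change of the 10 genes was 0.05 in Nthy-ori 3-1 and 0.28 in TT, where the medians over all probes were 0.0016 and 0.0007. With normexp, 2 of the 19 probes were called lower in Nthy-ori 3-1 (SEC23A and the 3′ SAR1A probe), against 2.03% of all probes, and with the deposited values the same 2 were called, against 0.818%. In the contrast of both effects 5 of 19 were called lower (SEC23A, the 3 SEC24A probes and the 3′ SAR1A probe), against 2.95% with normexp and 1.94% with the deposited values. The thresholds of the study without its p-value, a log2 change of at most -1 at an average of at least 6, were met in Nthy-ori 3-1 by SEC23A and the 3′ SAR1A probe (1.36% of all probes). Those for TT, a change of at least 0.6 at an average above 6, were met by SEC23A, SEC24A and SEC24D (1.18% of all probes). The study picked SEC23A with these thresholds on these arrays, so that it met them was set beforehand. Its part in the other counts of this paragraph is not independent of that choice either.

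RNA integrity in TT and the levels of some marker genes moved with the treatments. Per the labels, RNA integrity (RIN) was 8 on both CTL arrays of TT and 9 on both antagomiR-375 arrays, so RNA quality and treatment cannot be told apart in TT, including for the 9 genes that were higher. In Nthy-ori 3-1 it was 9 throughout. On the premiR-375 arrays 5 of the 6 C cell genes were well above background, against 1 of 6 (RET) on the CTL arrays of that line. Their summed level on the linear scale was 0.102% and 0.105% of the TT CTL mean with premiR-375, and 0.0251% and 0.0229% with CTL. The like sums came from different genes. On the premiR-375 arrays CALCA was at 8.12 and 4.51 and SCG2 at 6.72 and 8.42. The TT CTL means were 18.55 for CALCA, the highest of the list, and 9.51 for SCG2, so the percentages do not hold for each gene. CEACAM5 was not well above background on any Nthy-ori 3-1 array. Of the other marker lists, the summed linear level of 3 leukocyte genes (all well above background on every array) was 629 and 393 with CTL and 848 and 898 with premiR-375, where the pair changes of CD14 were 0.79 and 1.15. Of 4 mesenchymal genes, FN1 had pair changes of -0.76 and -1.08, COL1A1 of 0.62 and 1.31, and VIM of -0.09 and -0.0048. The part of these values in the results was not tested.

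SEC23A was then set against each partner within pairs. Its change lay below that of SEC23B, SEC24B, SEC24C, SEC31A, SEC13, SAR1A and SAR1B in 4 of 4 pairs, with means from -0.77 for SEC13 to -1.22 for SAR1A (exact sign-flip permutation test, p = 0.125 and 0.161 adjusted over 9 partners for each). For SEC24D it lay below in 3 of 4 pairs, with -1.75 and -1.79 in Nthy-ori 3-1 and 0.06 and -0.0065 in TT (mean -0.87, exact permutation p = 0.375). SEC24A was the nearest, with -0.84 and -0.71 in Nthy-ori 3-1 but 0.38 and 0.39 in TT (mean -0.20, exact permutation p = 0.625). The premiR-375 change was larger for SEC23A than for SEC24A in both pairs, and the antagomiR-375 change was larger for SEC24A in both pairs. As 4 pairs cannot reach a p of 0.05, none of these differences could pass. SEC23A was chosen by the study partly on these arrays for this direction, so the sign of these differences is not independent of that choice. The pairs also join both lines and both reagents. Each partner was read by its brightest probe, and for SAR1A the result depends on the probe. The 3′ SAR1A probe changed by -1.80 and -1.45 in the Nthy-ori 3-1 pairs, where SEC23A changed by -1.51 and -1.27. SEC23A thus lay above that probe in both of these pairs. In the TT pairs the 3′ probe changed by 0.44 and 0.20, and SEC23A by 0.70 and 0.61.

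**Figure D4:**
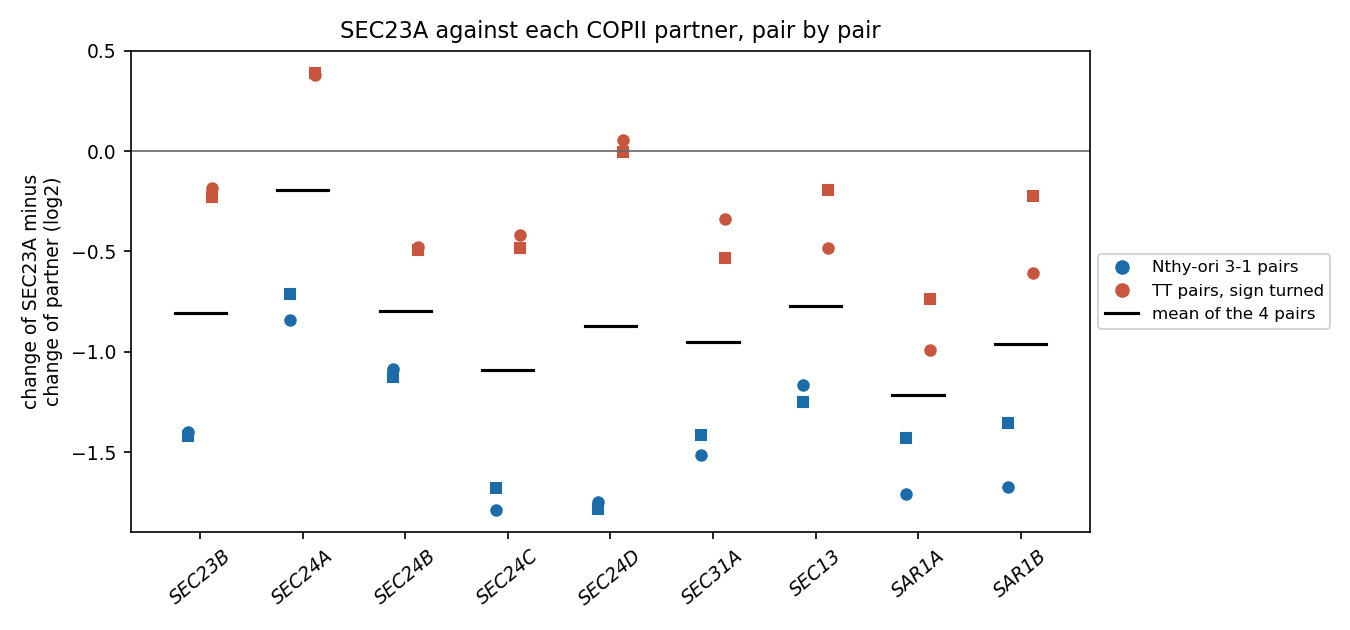
Log2 change of SEC23A minus that of each partner's brightest probe (vertical axis) in the Nthy-ori 3-1 pairs (blue) and in the TT pairs with the sign turned to the premiR direction (red), with the mean of the 4 pairs as a black bar. All blue points lie below 0, and the red points of SEC24A lie above 0 at 0.38 and 0.39.

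Between the CTL cells of the 2 lines, 5 of the 10 genes were called lower in TT than in Nthy-ori 3-1 and none was called higher (limma with the slide as a random block), while 15.3% of all probes were called lower and 14.8% higher. With dim probes left out these shares were larger, at 7394 of 30270 lower and 7211 higher. This comparison shares its CTL arrays with the 2 above, and line, slide and RNA integrity cannot be told apart in it. SEC23A was 2.99-fold lower in TT (log2 difference -1.58, standard error 0.204, adjusted p = 0.00311 from limma). The study also chose SEC23A for being lower in TT than in other thyroid cell lines of a public dataset. The direction of its difference here is therefore not independent of that choice. SEC24A was 2.91-fold lower (-1.54, standard error 0.155, adjusted p = 0.00125), and SEC13 was 2.57-fold lower (-1.36, standard error 0.161, adjusted p = 0.00227). SEC24C (-0.51, adjusted p = 0.0304) and SAR1A (-0.56, adjusted p = 0.0194) differed less, and both lost the call with any 1 pair of arrays left out. Without either TT pair the adjusted p of SEC23A was 0.0728 and 0.0608, whereas those of SEC24A and SEC13 stayed below 0.05. All 3 SEC24A probes, the 4 bright SEC13 probes and all 3 SAR1A probes were called lower, though the 3′ SAR1A probe (adjusted p = 0.0376) was not without the block (adjusted p = 0.06). The values for SEC31A (-0.45, adjusted p = 0.0785), SAR1B (0.40, adjusted p = 0.119), SEC23B (-0.15, 95% interval -1.26 to 0.96), SEC24B (-0.15, 95% interval -1.41 to 1.11) and SEC24D (-0.01, 95% interval -0.65 to 0.63) did not pass. Without the second pair of Nthy-ori 3-1 the last 3 had a positive sign, at 0.36, 0.45 and 0.21, and without the first pair of TT so had SEC23B (0.02) and SEC24D (0.10). Without the first pair of Nthy-ori 3-1, SEC24B was called lower at -0.75 (adjusted p = 0.0279).

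Over the 4 groups SEC23A was lowest in TT CTL, next in Nthy-ori 3-1 with premiR-375, next in TT with antagomiR-375, and highest in Nthy-ori 3-1 CTL. The lowest pair of groups overlapped on the arrays and the other steps did not. SEC24A had the same order, with overlap between its middle groups alone. For SEC23B, SEC24B and SEC24D each group overlapped its neighbour.

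Among 17004 genes well above background on all arrays, those nearest to SEC23A over the 8 arrays were USP10, CCDC117, EIF3J and 2 probes without a gene name, with root mean square differences of 0.15 to 0.20 log2 units after centring (median of all genes 0.78). SEC24A was the nearest member at 0.32, with 106 genes nearer. SEC13 followed at 0.54 and SEC31A at 0.57, and SAR1B was the farthest at 0.78. By the 4 within-slide changes alone, the nearest were GPD1L, XPR1, PDGFC, MAP2K1 and ICOSLG, at 0.08 to 0.15, and SEC24A lay at 0.61 with 670 genes nearer.

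The promoters of the members were searched for motifs of the ER stress response, and those of SEC23A and SEC24A, which shared the reciprocal pattern with SEC24B and SEC13, are shown because they alone held one. Windows of 250 bases before to 50 after the start were searched on both strands for TGACGTGG (an unfolded protein response element, which ER stress factors read), TGACGTCA (the cAMP response element, which shares its first 6 bases) and the ER stress response element. Of the 14 windows of members, TGACGTGG was in those of SEC23A and SEC24A alone, against 0.729% of 35116 windows. The other motifs were in none of the 14, against 1.85% and 0.0769% of all. The first 280 bases of both windows are printed with the motif in capitals (RefSeq, GRCh38.p14), at chr14:39103206-39103485 on the minus strand and at chr5:134648535-134648814 on the plus strand. It crosses the start in SEC23A and begins at base -179 from it in SEC24A. A match describes the letters only, and binding was not measured.
SEC23A promoter: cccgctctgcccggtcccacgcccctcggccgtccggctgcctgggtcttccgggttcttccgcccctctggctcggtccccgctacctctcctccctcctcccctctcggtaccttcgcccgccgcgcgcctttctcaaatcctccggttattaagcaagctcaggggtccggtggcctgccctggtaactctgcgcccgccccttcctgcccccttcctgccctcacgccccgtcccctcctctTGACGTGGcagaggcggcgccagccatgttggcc
SEC24A promoter: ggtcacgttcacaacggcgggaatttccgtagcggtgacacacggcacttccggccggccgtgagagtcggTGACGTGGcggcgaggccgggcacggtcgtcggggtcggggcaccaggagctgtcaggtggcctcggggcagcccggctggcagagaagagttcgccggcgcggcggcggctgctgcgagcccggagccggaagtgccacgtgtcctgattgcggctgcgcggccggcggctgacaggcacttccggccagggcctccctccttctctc

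Around the coat, neighbouring transport genes were described by lists. Of 14 genes on the array listed as ER exit site and COPII regulators, 3 were lower and 2 higher with premiR-375. This was at an unadjusted p under 0.05 from limma, and the median log2 change was -0.07. The list also holds SEC31B, the paralog of the coat subunit SEC31A, and the SNARE SEC22B. Both were among the lower genes, at -0.64 and -0.51, so the counts of this list are not of regulators alone. The lowest was SEC23IP, which binds SEC23, at -0.80 (0.31 in TT), and the highest was TECPR2, a factor that holds ER exit sites together, at 0.99 (-0.08 in TT). Of 16 cargo receptors and adaptors, 4 were lower and 1 higher, with a median of 0.12. The lowest was LMAN1 (ERGIC-53, a receptor for glycoproteins) at -1.49, with 0.33 in TT, and it was well above background on 7 of 8 arrays. Of 14 tethers and SNAREs, 1 was lower and none higher (median 0.04), namely the SNARE YKT6 at -0.86, which was also the highest of its list in TT at 0.61. Of 11 genes of the COPI coat, which runs the return route, 2 were lower and none higher (median -0.0085), with COPG2 lowest at -1.20 (-0.14 in TT). The background shares at this threshold were 7.26% lower and 7.08% higher. With dim probes left out they were larger, at 3708 of 27722 lower and 3708 higher. The reciprocal pattern in all 4 pairs was seen in 2 of 14 regulators, 5 of 16 cargo receptors, 2 of 14 tethers and SNAREs and 1 of 11 COPI genes, against 8.95% of all probes and 12.5% of bright ones. Adjusted over all probes, limma called none of the genes of these lists with either reagent. In the CTL cells of TT against those of Nthy-ori 3-1, where 15.3% of all probes were called lower and 14.8% higher, 6 of 14 regulators were called lower (SEC16A, the scaffold of ER exit sites, at -2.06, and TFG, SEC22B, SEC23IP, TECPR2 and SEC31B), and KLHL12 was called higher. Of 16 cargo receptors 5 were called higher (TMED10 at 1.35, ERGIC1, ERGIC3, CNIH1 and BCAP31) and CNIH4 was called lower. Of 14 tethers and SNAREs 4 were called lower, with BET1 lowest at -2.79, and 3 higher, with TRAPPC4 highest at 1.24. Of 11 COPI genes 1 was called lower, COPZ2 at -4.52, and 2 higher, COPE and COPZ1 at 1.84, the paralog of COPZ2. With dim probes left out, 7394 of 30270 probes were called lower and 7211 higher in this comparison of the CTL cells.

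**Figure D5:**
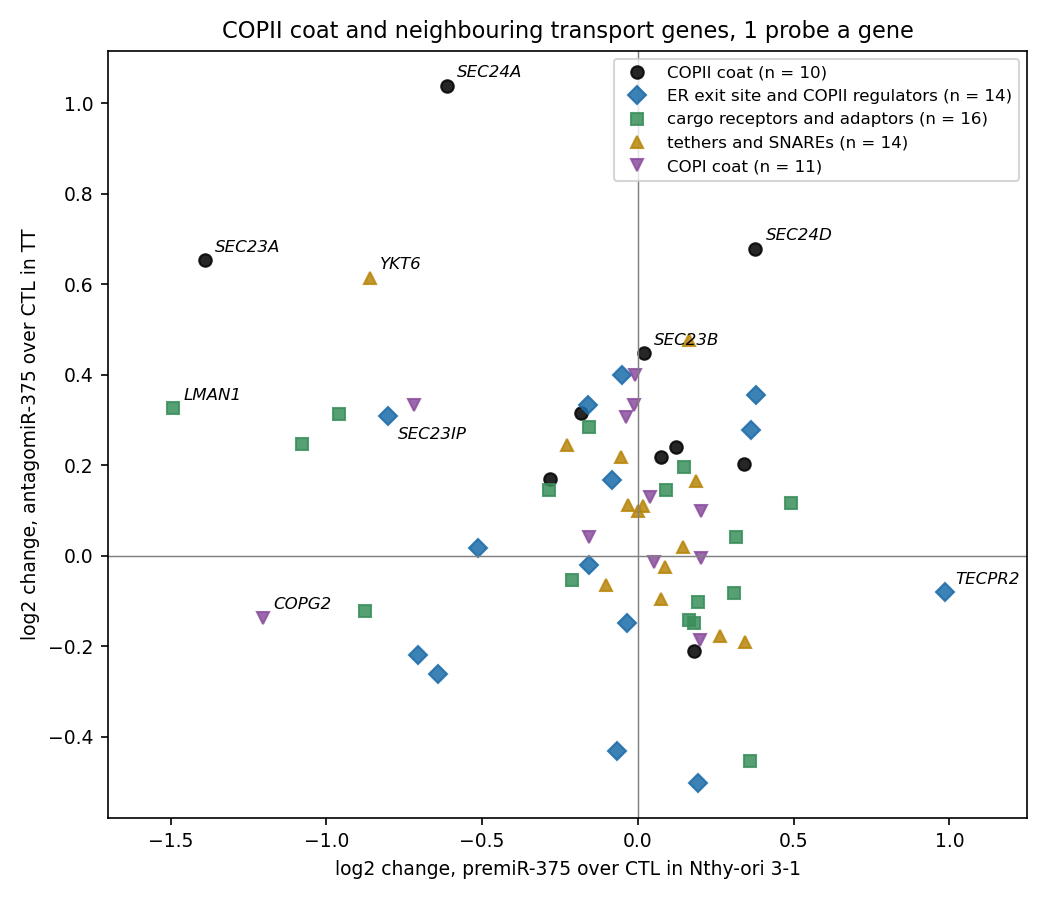
Log2 change with premiR-375 in Nthy-ori 3-1 (horizontal axis) against that with antagomiR-375 in TT (vertical axis) for the brightest probe of each COPII gene (black) and of the genes in 4 transport lists. SEC23A, SEC24A, YKT6, LMAN1 and SEC23IP lie to the upper left, lower with premiR-375 and higher with antagomiR-375, SEC24D and SEC23B lie above 0 on both axes, and COPG2 and TECPR2 lie apart to the left and right.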

How the data were processed

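RNA of 8 samples was read on one-colour Agilent SurePrint G3 arrays. For each array the authors deposited the spot intensity written by Feature Extraction 10.10.1.1 (hg19), background-subtracted but not normalized between arrays, and a table of log2 values with column medians of 6.65 in Nthy-ori 3-1 and 6.38 to 6.39 in TT. These values follow the log2 of the median signal (r = 0.998 or more), so their scale is log2, they are not centred, and they were normalized within each line. The study's methods name quantile normalization and limma.

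Here the processed intensity was taken to log2, control and outlier spots were left out, repeat spots were averaged by probe, and quantile normalization of the 8 arrays together followed (limma 3.58.1, R 4.3.3). Each line had its own fit (lmFit, eBayes), blocked by replicate number. That number stands for the slide, and deviations of same-numbered arrays from their group means correlated (r = 0.785 in Nthy-ori 3-1 and 0.330 in TT). The contrast of both effects used all 8 arrays with the slide as a block, and the CTL arrays were compared with the slide as a random block (duplicateCorrelation). All p-values were adjusted over all probes by the Benjamini-Hochberg method and called at 0.05. The change of SEC23A minus that of each partner was tested by exact sign flips over 4 pairs. Each fit was tested on simulated data with known changes. There the fits within a line and the contrast of both effects gave the sign of nearly all changed probes but called none of them. Their simulated noise reshuffled the spreads of all probes on each array, so a probe did not keep its own spread. In that setting a lack of calls in these 3 fits does not show a lack of change. The fit between the CTL cells called 166 of 200 changed probes and 10 unchanged ones, among 10280 simulated probes. Its simulated noise used the spread of the TT CTL arrays for both lines. The recovery in the real comparison may therefore differ.

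All members and every probe of them are named, with the brightest probe standing for a gene. The genes of a list are named only if called in a contrast or at its lowest or highest change, and not all of these are named, and the 5 genes nearest to SEC23A by root mean square difference are named. The members, lists and tests were chosen with earlier results of these data known. All 10 member names are current RefSeq symbols (GRCh38.p14). One gene of the marker lists is not reported here. Whether a probe also matches other transcripts was not tested. Alternatives were other normalizations, background corrections, filters, fits and the leaving out of each pair.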

Additional observations from a re-analysis of the deposited data

How the results depend on the processing

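The pairing came from the replicate numbers, which are the slides. Without the replicate block, limma called 0 probes in Nthy-ori 3-1, 0 in TT, 0 in the contrast of both effects and 15245 between the CTL cells (15248 with it), and the 3′ SAR1A probe lost its call between the CTL cells (adjusted p = 0.06), while no other COPII call changed with the block. Over all probes the count of 0 in Nthy-ori 3-1 became 1560 with normexp and 577 with the deposited values, and that of 0 in the contrast of both effects became 2598 and 1681. Between the CTL cells 8184 to 16231 probes were called with 1 pair left out, and 3 of 19 COPII probes without either TT pair against 13. The mean of SEC23A minus SEC24A ran from -0.39 to 0.019 with 1 pair left out. SEC23B in Nthy-ori 3-1 was -0.0296 at the 75th percentile scaling and -0.0016 with the mean of its probes, and -0.11 to 0.15 with 1 pair left out. SEC31A there was -0.0049 at the 75th percentile scaling. With the mean of the probes SEC13 was 0.13 in Nthy-ori 3-1 and 0.092 in the contrast of both effects, and SAR1A -0.52 and -0.45. With 1 pair left out the difference between CTL cells was -0.66 to 0.36 for SEC23B, -0.75 to 0.45 for SEC24B and -0.23 to 0.21 for SEC24D, and the contrast of both effects for SAR1B was -0.27 to 0.0303. Of 511 alternative values of the members 465 kept direction and side of the threshold, 14 reversed, 18 lost and 14 gained the call, and for SEC23A none of 45 reversed. The causes were not tested. Normalization within a line and the deposited values were not run between the lines, which they do not set on one scale. With a pair left out the lone pair is assumed to vary like the other line.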
